A study of Mus musculus with 6 samples.

Results

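The translation initiation and elongation factors of mouse muscle were followed after loss of the nerve. These genes were chosen by name alone. Every protein-coding row of the deposited gene table whose symbol begins with Eif1 to Eif6, Eef1 or Eef2 was taken, together with Etf1, and 1 gene that matches by name is not reported here. This gave 67 rows under 66 symbols, out of 22187 rows in the table. The name rule also took Eif2c1 to Eif2c4, older symbols of the Argonaute genes, which act in silencing by small RNAs and are described apart. Whole left gastrocnemius, a calf muscle, came from 6 male C57BL/6J mice labelled as 12 weeks old and kept on standard chow. The 3 controls were normal mice with no operation described, and in the 3 denervated mice 2 mm of left sciatic nerve had been cut out 2 weeks before sampling, so the operation and the loss of the nerve cannot be told apart. Each library is 1 mouse. Whole muscle holds fibres together with vessel, connective tissue, nerve and immune cells.

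Initiation factors bring the small ribosomal subunit and the initiator tRNA to the start of an mRNA. In that step eIF2 carries the initiator tRNA, eIF2B reloads eIF2 with GTP, eIF3 organises the small subunit, and the eIF4 factors bind the cap and unwind the leader. Elongation factor eEF1A then delivers each aminoacyl-tRNA, eEF2 moves the ribosome along, and eRF1, the product of Etf1, ends synthesis at a stop codon. Mammals have a pair of eEF1A proteins from separate genes. Eef1a1 is expressed in most tissues, while Eef1a2 replaces it after birth in skeletal muscle, heart and neurons.

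Levels are given as TPM, a length-corrected abundance, times a library factor between 0.977 and 1.13. The number of reads behind them is unknown. Between 17875 and 18204 rows were above 0 in the controls and between 19007 and 20243 in denervated muscle. Differences were computed from log2(level + 1), control subtracted from denervated, and carry a standard error (SE); this scale understates the change of low genes. A row was tested when it reached 0.5 in at least 3 of the 6 libraries, and it was called at a limma adjusted p below 0.05 over all 12392 rows tested.

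The eEF1A pair moved in opposite directions, with Eef1a1 up and Eef1a2 down, Eif4a1 rose, Eif4e fell and 7 eIF3 subunits rose. Of 67 rows 63 were tested, and 18 were higher, 8 lower and 37 not called. That is 28.6% higher, against 22.9% of all rows tested, and 12.7% lower, against 24.3% of all rows tested. In all 41.3% were called, against 47.3% of all rows, somewhat below the background. These shares grow with level. Of tested protein-coding rows with a mean level from 0.5 to below 2, 18.9% were higher and 16.6% lower. At 50 or more 32.4% were higher and 50.8% lower, and of the 9 factor rows there 4 were higher and 1 lower. The groups of 3 mice lay apart without overlap for 32 of the 63 rows, or 50.8%, against 57.5% of all rows. The median log2 fold change was 0.04, beside -0.01 for all rows tested. Among the called rows 5 changed by 1 or more on the log2 scale, namely Eef1a1, Eif4a1, Eef1b2, Eef1a2 and Eif4e. Without the Argonaute rows 17 were higher and 8 lower of 59.

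**Figure D1:**
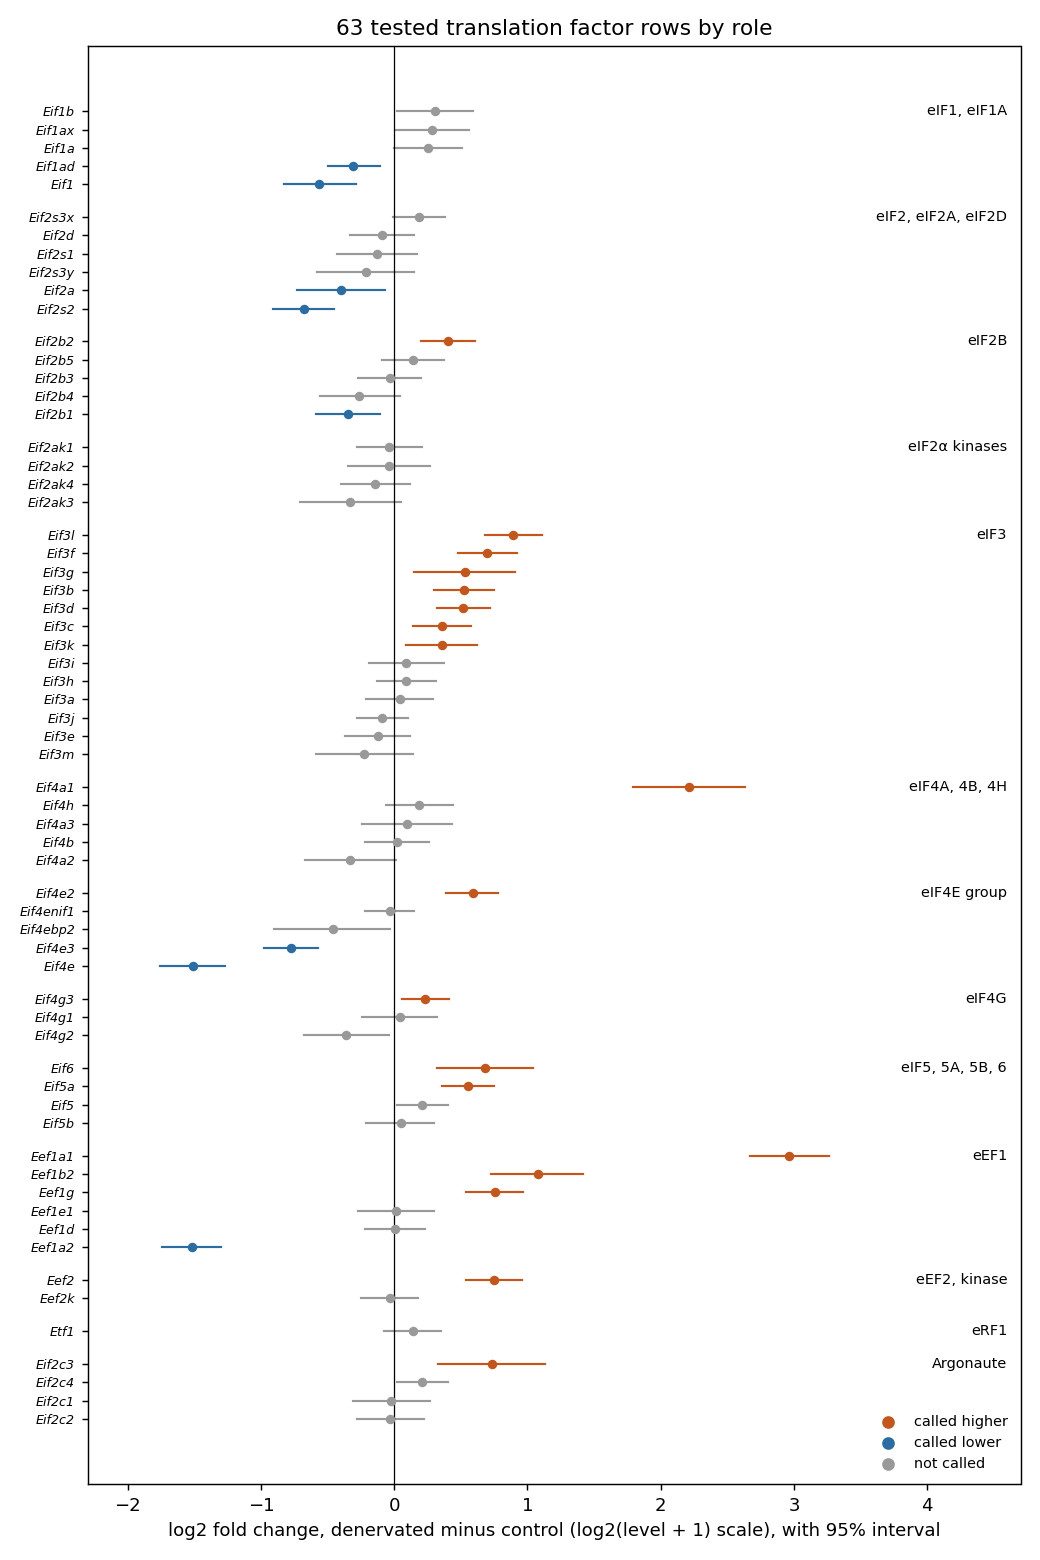
Log2 fold changes (denervated minus control, log2(level + 1) scale) of the 63 tested rows by role, as points with 95% intervals from limma. Orange rows were called higher, blue rows lower and grey rows not called. Eef1a1 stands farthest to the right at 2.96, and Eef1a2 and Eif4e farthest to the left at -1.52 and -1.51.

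Summed over the 67 rows, the level was 1756, 1712 and 1847 in the controls and 3137, 3082 and 2762 in denervated muscle. Eef1a1 made up most of that difference. Without it the sum was 1619 ± 57.2 (SD, n = 3) in controls and 1793 ± 54.1 in denervated muscle, and the groups still did not overlap. As a share of all protein-coding signal the 67 rows went from 0.514% ± 0.0153 to 1.62% ± 0.119. However, protein-coding rows as a whole made up less of the signal after denervation. Divided by its geometric mean over the libraries, the protein-coding total was 1.378, 1.34 and 1.375 in controls. In denervated muscle it was 0.7327, 0.7277 and 0.7384.

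The eEF1A pair exchanged places. Eef1a1 (ENSMUSG00000037742) was at 145, 146 and 167 in the controls and at 1282, 1307 and 1011 in denervated muscle. All 3 denervated mice were far above all 3 controls, and the ratio of the means was 7.87. The log2 fold change was 2.96 (SE 0.126, adjusted p = 2.65e-06). Eef1a2 (ENSMUSG00000016349) was at 276, 249 and 269.7 in the controls and at 89.96, 85.4 and 99.8 after denervation, again without overlap. Its mean was 2.89-fold lower, with a log2 fold change of -1.52 (SE 0.0943, adjusted p = 1.42e-05). Eef1a2 was the most abundant of the 67 rows in controls, at rank 1, and stood at rank 6 in denervated muscle, where Eef1a1 took rank 1.

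A ratio within a library does not depend on how libraries are scaled against each other. Eef1a2 held 65.6%, 63.1% and 61.8% of the summed eEF1A level in the controls and 6.56%, 6.13% and 8.98% in denervated muscle. Eef1a1 lay below Eef1a2 in every control and at 14.3, 15.3 and 10.1 times Eef1a2 in the denervated mice. On the log2 scale the difference Eef1a1 minus Eef1a2 moved by 4.48, from -0.79 ± 0.122 to 3.69 ± 0.316. A two-sided exact permutation test over mice gave p = 0.1, the smallest that 3 against 3 can give. The summed level of both genes rose as well, from 417 ± 21.4 to 1292 ± 157.

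The other elongation factors rose or stayed within the spread between mice. Eef2, the translocase, was at 237, 225 and 251 in controls and at 428, 392 and 381 in denervated muscle (log2 fold change 0.75, SE 0.0915, adjusted p = 0.0004). Eef2k, the kinase that inhibits eEF2, was at 13.5 ± 0.189 and 13.2 ± 1.25 and was not called, with a log2 fold change of -0.03 and a 95% interval from -0.25 to 0.18. The exchange complex that reloads eEF1A with GTP changed unevenly. Eef1b2, an exchange subunit, rose from 35.7, 23.9 and 30.9 to 65.5, 68.9 and 57.8 (log2 fold change 1.08, adjusted p = 0.000747), and Eef1g, its structural subunit, from 74.5 ± 6.58 to 126 ± 4.65 (log2 fold change 0.75, adjusted p = 0.000404). In both cases every denervated mouse was above every control. Eef1d, the other exchange subunit, was at 78.1 ± 7.93 and 78.3 ± 1.61, with overlapping groups and a log2 fold change of 0.01 (95% interval -0.22 to 0.23). Eef1e1, which sits in the complex of tRNA synthetases, was at 4.59 ± 0.811 and 4.61 ± 0.163 and was not called either. Etf1 had 11.7, 10.4 and 10.9 in controls and 12.2, 13.2 and 11.3 after denervation (log2 fold change 0.14, adjusted p = 0.253).

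**Figure D2:**
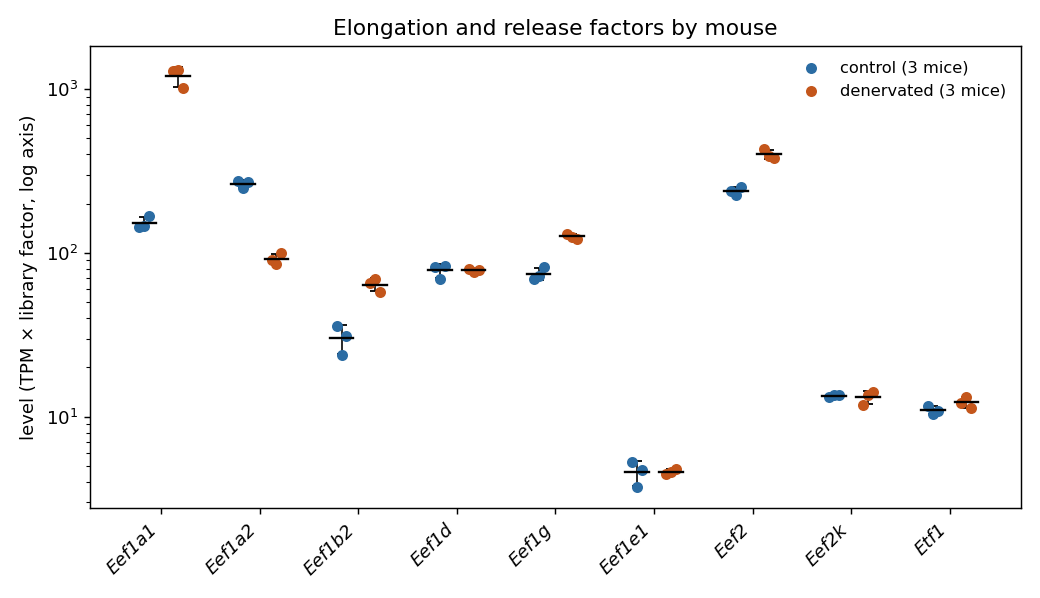
Levels of the elongation factors, eEF2 kinase and Etf1 in each of the 6 mice (TPM times library factor, log axis), with blue points for controls, orange points for denervated muscle, bars for the means and whiskers for 1 SD over 3 mice. Eef1a1 goes from below Eef1a2 to the highest level of the plot, while Eef1d, Eef1e1, Eef2k and Etf1 overlap between groups.

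Many mRNAs of the translation machinery begin with a 5′ terminal oligopyrimidine (TOP) tract, a run of C and T through which growth signals control their translation. Of the 67 rows 10 belong to genes known for such a tract, and 5 of these 10 were higher (Eef1a1, Eef1b2, Eef1g, Eef2 and Eif3f), 1 was lower (Eef1a2) and 4 were not called (Eef1d, Eif3e, Eif3h and Eif4b). Their median log2 fold change was 0.39, beside 0.04 for the 53 other tested rows. Of all rows tested 22.9% were higher and 24.3% lower. Both shares grow with level, to 32.4% and 50.8% of tested protein-coding rows at a mean level of 50 or more. The TOP genes were not compared with rows of like level. The bases around the annotated starts are shown because both eEF1A genes belong to this class while their levels moved in opposite directions; Eif3l and Eif4e are not on the list and are shown as the eIF3 gene with the largest rise and the initiation factor with the largest fall. The windows of 30 bases run from 15 before the start to 15 from it, 5′ to 3′ on the transcript strand, and come from RefSeq on GRCm38.p6. Capitals mark the longest run of C or T where it reached 8 bases.
Eef1a1, chr9:78481710-78481739, minus strand: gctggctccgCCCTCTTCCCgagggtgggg
Eef1a2, chr2:181157001-181157030, minus strand: TCTCTCCTggtctgcgttctcgctcactgg
Eif3f, chr7:108934400-108934429, plus strand: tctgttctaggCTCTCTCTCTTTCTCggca
Eif3l, chr15:79075208-79075237, plus strand: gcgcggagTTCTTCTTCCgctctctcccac
Eef1b2, chr1:63176816-63176845, plus strand: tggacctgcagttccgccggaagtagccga
Eef2, chr10:81176616-81176645, plus strand: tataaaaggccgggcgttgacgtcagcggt
Eif4e, chr3:138526176-138526205, plus strand: tgctaaaacagcagcggaggcggagggagc
The annotated start is base 16 of each window. The runs of Eef1a1, Eif3f and Eif3l span it, at bases 11 to 20, 12 to 26 and 9 to 18. That of Eef1a2, at bases 1 to 8, lies wholly before the annotated start and so outside the annotated mRNA. The windows of Eef1b2, Eef2 and Eif4e shown here hold no such run. Eef1b2 and Eef2 are on the TOP list, and a window without a run does not show that the mRNA lacks a tract. Eif4e has a further annotated start with a run of 10, at bases 4 to 13, which also ends before that start. Such runs stood in 11 of 48 factor genes with a window (22.9%), in 4 of 15 called higher (26.7%), in 2 of 7 called lower (28.6%), in 3 of 6 on the TOP list (50.0%) and in 3760 of 27025 genes overall (13.9%). Only the transcript strand was searched, these counts include runs before the start, and annotated starts can differ from those used in muscle. The search took any run in the window, so no marked run, that of Eef1a1 included, was shown to be a TOP tract.

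In eIF3, the largest initiation complex, 7 of 13 subunit genes (53.8%) were higher and 0 lower, beside 22.9% and 24.3% of all rows tested. The 3 subunits Eif3e, Eif3j and Eif3m had a fold change below 0 that was not called. At an unadjusted p below 0.05 no further subunit was lower. Eif3l, a peripheral subunit, was at 13.8, 14.6 and 16.5 in controls and at 30.0, 28.3 and 27.6 in denervated muscle, with wide separation of the groups (log2 fold change 0.89, SE 0.0924, adjusted p = 0.00017). Eif3f rose from 11.8, 12.6 and 14.5 to 20.8, 22.0 and 22.3 (log2 fold change 0.70, adjusted p = 0.000732). Eif3b and Eif3d, of which the first is a core scaffold and the second can bind the cap of some mRNAs, rose by 0.53 and 0.52 on the log2 scale. Eif3c, another core subunit, Eif3g and Eif3k had log2 fold changes of 0.36, 0.53 and 0.35, and their calls depended on single mice. Eif3c missed the threshold without control 1 or denervated 1 (adjusted p = 0.0568 and 0.0591), Eif3g without denervated 1 or 2 (0.0975 and 0.0745), and Eif3k without any 1 of mice 1 and 2 of either group (from 0.0557 to 0.103). Eif3a, the largest subunit, was at 13.1 ± 0.953 and 13.5 ± 1.56, and Eif3e, Eif3h, Eif3i and Eif3m also overlapped between groups. Eif3j, a loosely bound subunit, was slightly lower in every denervated mouse, at 4.17 ± 0.135 and 3.85 ± 0.0983, and was not called (log2 fold change -0.09). Summed over the 13 subunits the level was 221, 217 and 239 in controls and 291, 284 and 256 in denervated muscle. The subunits therefore did not move by equal amounts. Eif3e, at 28.6 ± 0.755 in controls and 26.3 ± 3.52 after denervation, was above Eif3l in controls. By its mean Eif3l, at 28.6 ± 1.22, was the higher of the pair in denervated muscle. In denervated 2, though, Eif3e was still above Eif3l, at 30.2 against 28.3.

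**Figure D3:**
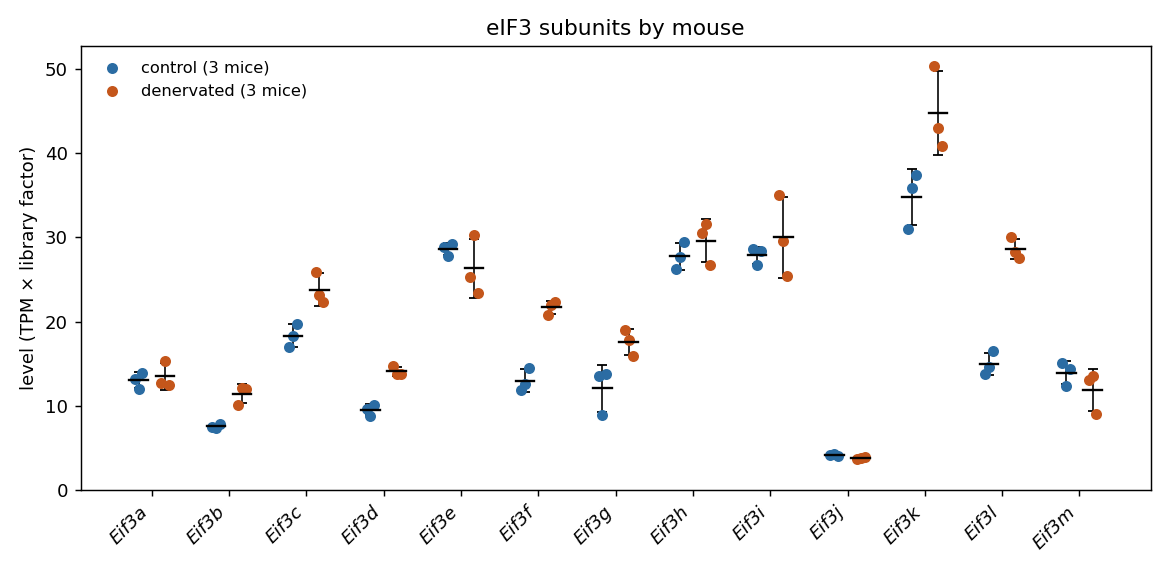
Levels of the 13 eIF3 subunit genes in each mouse (TPM times library factor, linear axis from 0), with means and 1 SD over 3 mice. The orange denervated points of Eif3b, Eif3c, Eif3d, Eif3f, Eif3g, Eif3k and Eif3l lie above all blue control points, and those of Eif3a, Eif3e, Eif3h, Eif3i and Eif3m overlap with them.

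The cap-binding genes changed in opposite directions. Eif4e, the cap-binding protein that starts most translation, was at 24.5, 26.3 and 24.4 in controls and at 7.48, 9.45 and 7.61 in denervated muscle, a mean 3.07-fold lower without overlap (log2 fold change -1.51, SE 0.105, adjusted p = 2.37e-05). Eif4e2, a homologue that binds the cap without recruiting eIF4G and can repress translation, rose from 12.7, 12.7 and 14.1 to 19.98, 21.1 and 19.7 (log2 fold change 0.59, SE 0.084, adjusted p = 0.000876). Within a library Eif4e2 held 34.4% ± 2.04 of the sum of both in controls and 71.3% ± 1.95 in denervated muscle. Eif4e was above Eif4e2 in every control mouse and below it in every denervated mouse. Eif4e3, an atypical cap binder, is listed in 2 rows. The row ENSMUSG00000093661 fell from 7.78 ± 0.29 to 4.14 ± 0.284 (log2 fold change -0.78, adjusted p = 0.000252, but -0.01 with equal protein-coding totals), and the row ENSMUSG00000030068, at 0.578 ± 0.0923 and 0.376 ± 0.0853, did not pass the level filter. Eif4ebp2, an inhibitor that sequesters eIF4E, was at 7.66 ± 0.881 and 5.40 ± 1.54 and was not called (adjusted p = 0.0771). Eif4enif1, which carries eIF4E into the nucleus, was at 7.93 ± 0.29 and 7.72 ± 0.311.

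Among the scaffolds and helicases Eif4a1 stood out. Eif4a1, a helicase that unwinds leaders, was at 10.9, 10.1 and 9.43 in controls and at 68.9, 42.3 and 44.0 in denervated muscle. All denervated mice were above all controls but spread widely, and the log2 fold change was 2.21 (SE 0.181, adjusted p = 5.26e-05). Its paralogue Eif4a2 was at 60.3, 50.5 and 57.7 and at 45.8, 52.7 and 36.0, with overlap and no call (log2 fold change -0.33, adjusted p = 0.0968). Eif4a1 thus held 15.3% of the summed level of both in controls and 53.2% in denervated muscle. Other rows move with Eif4a1, and their part in its rise was not tested. A pseudogene row, Eif4a-ps4, whose transcript matches Eif4a1 at 95% identity or more over at least 200 bases, went from 20.3 ± 0.297 to 68.9 ± 8.85. With both rows added up the log2 fold change was 1.93 (limma adjusted p = 2.42e-05). The gene body of Eif4a1 also holds 3 small nucleolar RNA (snoRNA) rows of the table. The most abundant of these, Gm22988, was at 15135, 10222 and 9891 in controls and at 33812, 42849 and 44646 in denervated muscle, and Gm24029 and Gm25835 rose from 69.7 ± 36.8 to 457 ± 167 and from 68.0 ± 50.3 to 839 ± 276. Levels of such short RNAs depend on a length correction that could not be checked.

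The remaining eIF4 genes changed little. Eif4g1, the main scaffold and the most abundant of its role, was at 103, 119 and 104 in controls and at 114, 96.5 and 126 in denervated muscle, with overlap (log2 fold change 0.04, 95% interval -0.24 to 0.32). Eif4g2, a scaffold that lacks the cap-binding arm, was at 58.9 ± 7.13 and 45.8 ± 7.26 (adjusted p = 0.0655). Eif4g3 was called at a log2 fold change of 0.23, from 13.4 ± 0.301 to 15.9 ± 0.108, but the call was lost without any 1 of the 6 mice (adjusted p from 0.0679 to 0.103). Eif4a3, a helicase of the exon junction complex, and Eif4b and Eif4h, helpers of eIF4A, had log2 fold changes of 0.09, 0.02 and 0.19 and were not called.

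**Figure D4:**
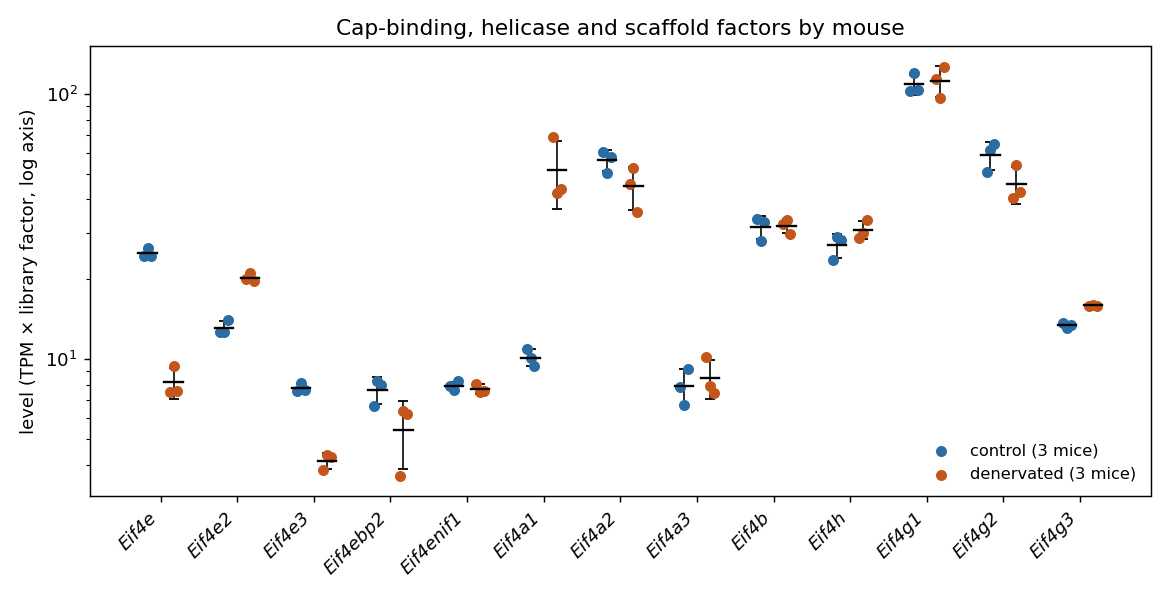
Levels of the tested eIF4 genes in each mouse (TPM times library factor, log axis), with means and 1 SD over 3 mice; Eif4e3 is the row that passed the level filter. Eif4e crosses below Eif4e2 after denervation, and Eif4a1 rises to the level of Eif4a2.

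In the eIF2 cycle the falls were small and uneven. Eif2s2, the beta subunit of eIF2, was at 19.2, 16.9 and 19.4 in controls and at 11.1, 12.1 and 10.3 in denervated muscle, without overlap (log2 fold change -0.68, SE 0.0977, adjusted p = 0.000915), a value that turned positive, at 0.16, with equal protein-coding totals. Eif2s1, the alpha subunit that stress kinases phosphorylate, was at 3.65 ± 0.491 and 3.25 ± 0.536, and Eif2s3x, the gamma subunit, at 15.6 ± 0.638 and 17.9 ± 1.03. Neither was called (adjusted p = 0.441 and 0.108). Within a library Eif2s2 went from 54.2% ± 2.77 to 38.4% ± 2.09 of the sum of Eif2s2 and Eif2s3x. Eif2s3y, the copy of the gamma subunit on the Y chromosome, was present in all 6 libraries, as the male label requires, at 9.27 ± 2.09 and 7.77 ± 0.998. Eif2a, which can deliver initiator tRNA by another route, was called at -0.40 (adjusted p = 0.0474), a call lost without any mouse but denervated 1 (adjusted p from 0.0538 to 0.139) and a direction that turned to 0.41 with equal protein-coding totals. Eif2d, a factor that can also deliver tRNA, was not called at -0.09.

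The exchange factor eIF2B had 1 of 5 subunit genes higher and 1 lower. Eif2b2, the beta subunit, rose from 9.72, 10.1 and 9.71 to 14.3, 12.2 and 13.6 (log2 fold change 0.40, SE 0.088, adjusted p = 0.00698). Eif2b1, the alpha subunit, was lower at 14.3 ± 1.12 and 11.1 ± 1.13 (log2 fold change -0.35, adjusted p = 0.0268), with a positive value of 0.48 under equal protein-coding totals. That call was lost without any 1 of mice 2 and 3 of either group (adjusted p from 0.0662 to 0.0827). Eif2b3, Eif2b4 and Eif2b5 overlapped between groups. None of the 4 kinases of eIF2 alpha was called by limma, nor did any reach an unadjusted p below 0.05. Eif2ak1, the haem-regulated kinase and the most abundant of them, was at 4.06 ± 0.575 and 3.92 ± 0.127. Eif2ak3, the kinase of the endoplasmic reticulum called PERK, was at 2.02, 1.59 and 0.936 in controls and at 1.06, 1.01 and 0.833 in denervated muscle, with a log2 fold change of -0.33 and a 95% interval from -0.71 to 0.05. Eif2ak2 and Eif2ak4, the kinases of double-stranded RNA and of amino acid shortage, were at 0.952 ± 0.257 and 0.896 ± 0.225 and at 1.27 ± 0.17 and 1.06 ± 0.214. These are transcript levels, and phosphorylation was not measured.

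Eif1, which guards the choice of start codon, fell from 34.3, 32.0 and 40.6 to 26.5, 22.4 and 22.4 (log2 fold change -0.56, SE 0.117, adjusted p = 0.00558), a value that turned to 0.30 with equal protein-coding totals. Its 4 near-copy rows, of which the gene Emd made up nearly all, summed to 15.9 ± 2.11 in controls and 22.3 ± 2.67 in denervated muscle. Added to Eif1, an alternative chosen after seeing the data, they left a log2 fold change of -0.16 that was not called (limma adjusted p = 0.276). Emd, which encodes emerin, shares a stretch of 662 bases with the Eif1 transcript of 1322, and how reads were divided between them was not tested. Its paralogue Eif1b was at 5.98 ± 0.506 and 7.68 ± 1.16 and was not called (adjusted p = 0.0726). Eif1a and Eif1ax, which encode forms of eIF1A, were not called at 0.25 and 0.29. Eif1ad, named for an eIF1A-like domain, was lower at 3.43 ± 0.0755 and 2.58 ± 0.125 (log2 fold change -0.31, adjusted p = 0.0181), a value of 0.36 with equal protein-coding totals and a call lost without control 2 or denervated 3 (adjusted p = 0.054 and 0.0593).

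Late-acting factors were higher or not called. Eif5a, which eases peptide bonds that stall the ribosome and carries the amino acid hypusine, rose from 89.9, 90.2 and 89.0 to 127, 128 and 143 (log2 fold change 0.56, SE 0.0841, adjusted p = 0.00116). Eif6, which holds the large ribosomal subunit apart until it is mature, rose from 10.2, 12.97 and 14.1 to 24.8, 17.8 and 19.0 (log2 fold change 0.68, adjusted p = 0.00891). In both genes the lowest denervated mouse was above the highest control. Eif5, which triggers GTP hydrolysis on eIF2, was at 10.9, 10.97 and 11.01 and at 12.5, 12.3 and 13.9 (log2 fold change 0.21, adjusted p = 0.071), and Eif5b, which joins the subunits, at 2.29 ± 0.251 and 2.41 ± 0.323. The 4 rows below the level filter were Eif4e1b, Eif4ebp3, Eif5a2 and the lower row of Eif4e3. Of these Eif5a2, the paralogue of Eif5a, was at 0.36 ± 0.0403 and 0.229 ± 0.062. Among the Argonaute rows Eif2c3 rose from 2.83, 5.17 and 4.09 to 6.78, 6.92 and 7.93 (log2 fold change 0.73, adjusted p = 0.00941), and the other 3 were not called.

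The direction of small changes depended on how the libraries were scaled. All 18 rows called higher stayed called under each of 5 other scalings. Apart from quantile normalization, each of these raised denervated muscle against controls, so a rise could hardly be lost and a fall easily could. The median log2 fold change of all rows was -0.01 as deposited, -0.04 with quantile normalization, 0.01 by median ratio and 0.05 as TPM without the library factor. Of the 8 called lower only Eef1a2 and Eif4e stayed called lower under all 5. Leaving out the 20 most abundant rows from the totals moved the median of all rows to 0.23, and equal protein-coding totals moved it to 0.60. There 57 of the 63 factor rows were called higher and 2 lower. The share of all rows called there is not given here, so these counts cannot be set against a background. As deposited 36 of the 63 factor rows lay above the median of all rows, and 45 did with equal protein-coding totals. Under that last scaling Eef1a1 stood at 3.86, Eef1a2 at -0.63 and Eif4e at -0.68, and Eif1, Eif1ad, Eif2a, Eif2b1 and Eif2s2 were above 0. In each of the 6 settings all 18 rows called higher lay above the median of all rows, and all 8 called lower below it. Apart from the quantile setting this order was nearly bound to hold, since each scaling multiplies a library by 1 constant. Of the 27 tested factor rows below 0 as deposited, called or not, 24 were above 0 with equal protein-coding totals, 16 without the 20 most abundant rows and 6 as TPM without the library factor, and 0 of the 36 rows above 0 went below it under any of the 5.

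**Figure D5:**
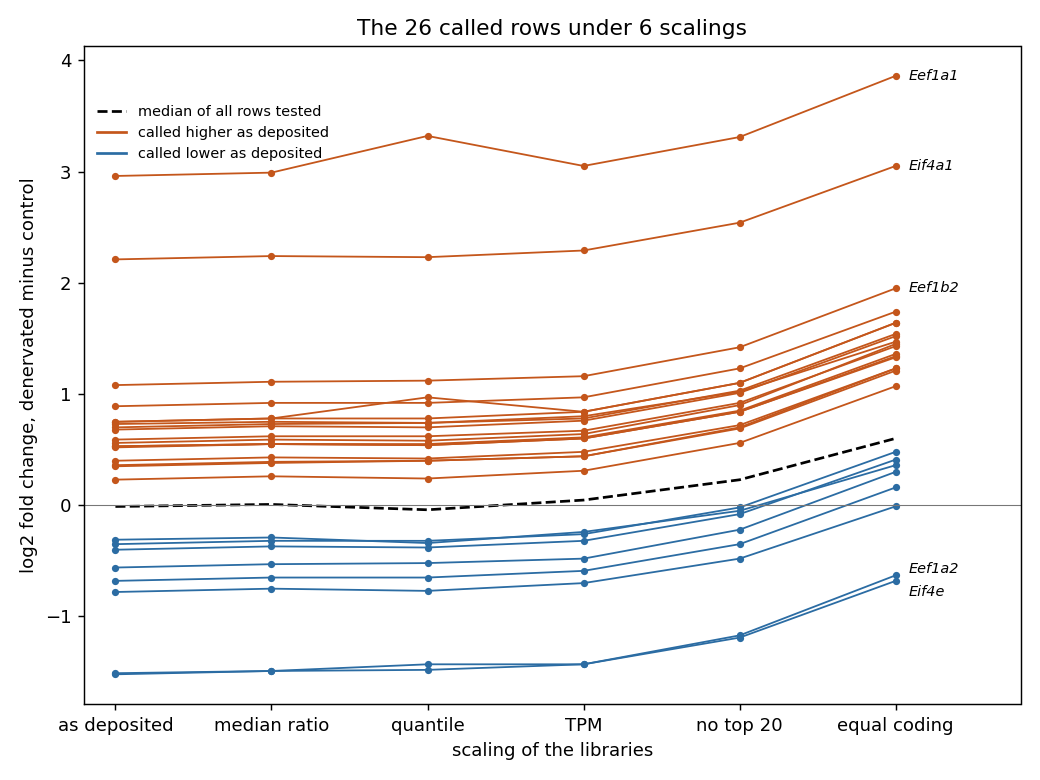
Log2 fold change (denervated minus control) of the 26 called rows under 6 scalings of the libraries, which are separate settings along the horizontal axis: values as deposited, median ratio, quantile, TPM without the library factor, totals without the 20 most abundant rows, and equal protein-coding totals. The dashed line is the median of all rows tested, which goes from -0.01 to 0.60. Apart from the quantile setting, each scaling multiplies a library by 1 constant and so moves the lines and the median nearly alike.

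Genes that act beside the factors gave mixed counts. Over all rows tested 22.9% were higher and 24.3% lower, or 47.3% called. Of 13 genes that control the factors, mostly kinases and their partners, 5 were higher and 1 lower (46.2% called). Mknk2, a kinase that phosphorylates eIF4E and the most abundant of the list, rose from 47.1, 45.5 and 46.2 to 242, 195 and 251 (log2 fold change 2.28, SE 0.11, adjusted p = 4.78e-06). Rps6kb2, a kinase of ribosomal protein S6, rose from 7.70 ± 0.214 to 16.4 ± 1.46, and Ddit4l, an inhibitor of mTOR signalling, fell from 27.8 ± 2.49 to 8.17 ± 1.81. Of 22 other cytosolic factors 6 were higher and 8 lower as deposited (63.6% called), and all 8 turned positive with equal protein-coding totals. Pdcd4, an inhibitor of eIF4A, rose from 2.14 ± 0.318 to 4.48 ± 0.81 and Pabpc1, a poly(A)-binding protein, from 10.2 ± 1.79 to 17.3 ± 2.91. Ddx3x, a helicase, fell by 0.81 on the log2 scale and Paip2b, an inhibitor of poly(A)-binding protein, fell by 0.62, with 0.04 and 0.18 under that scaling. Pabpc4, the most abundant of this list, had -0.35 as deposited and 0.53 with equal protein-coding totals, and its call was lost without control 2, control 3 or denervated 2 (adjusted p from 0.0779 to 0.109).

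The enzymes that modify eIF5A and eEF2 had 2 of 9 higher and 2 lower (44.4% called, beside 47.3% of all rows tested). Dohh and Dhps, which make hypusine on eIF5A in successive steps, had log2 fold changes of 0.43 and -0.64, the latter turning to 0.15 with equal protein-coding totals. Dph5 and Dph3, of the diphthamide pathway of eEF2, had 0.61 and -0.42, the latter turning to 0.42 under the same scaling. The call of Dph3, the most abundant of these 9, was lost without control 1, control 2, denervated 1 or denervated 3, with adjusted p from 0.0648 to 0.084. Of 22 cytosolic tRNA synthetase genes and their scaffolds 5 were higher and 8 lower as deposited (59.1% called). Of the 8 lower, 6 were above 0 once protein-coding totals were made equal. Dars and Vars, for aspartate and valine, rose from 9.60 ± 0.834 to 25.6 ± 2.10 and from 6.57 ± 0.426 to 15.7 ± 0.919, while the scaffold gene Aimp2 fell from 56.6 ± 6.94 to 24.7 ± 3.14 and Yars, for tyrosine, from 8.71 ± 1.29 to 4.62 ± 0.411. Of 11 mitochondrial translation factors 0 were higher and 6 lower (54.5% called) by limma as deposited, with a median of -0.42. With equal protein-coding totals 5 of these 6 were above 0. Guf1, a GTPase of this list, fell by 0.75. Gfm1, a mitochondrial elongation factor, had -0.74 as deposited and 0.11 with equal protein-coding totals, and Tufm, the most abundant, had -0.45 and 0.41.

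Cell type markers moved too, and fewer cells of a type cannot be told apart from less RNA per cell in whole muscle. Over all rows tested 22.9% were higher and 24.3% lower. Of 10 markers of muscle fibres 9 were lower, with a summed level of 33081 to 37546 in controls and 12381 to 14485 in denervated muscle, so the labelled tissue was evident in every library. Of 9 tested macrophage markers 7 were higher, with sums over 11 rows of 24.4 to 31.6 and 54.4 to 64.4. Markers of satellite cells and regenerating fibres had 4 of 6 higher and 1 lower, with sums of 15.8 to 19.2 and 58.2 to 64.6. Most of both sums was Myod1, at 11.9 ± 2.38 in controls and 49.5 ± 4.1 in denervated muscle. Pax7, at 0.359 ± 0.0521 and 0.459 ± 0.0929, did not pass the level filter. Endothelial markers had 1 of 10 higher and 9 lower, with sums of 109 to 120.1 and 64.6 to 66.5. Markers of fibro-adipogenic progenitors had 6 of 9 lower, with sums of 487 to 551 and 295 to 335, and those of pericytes and smooth muscle 7 of 8 lower, with 143 to 151 and 69.2 to 74.6. Of these falls 3, 5 and 4 turned positive with equal protein-coding totals. Schwann cell markers had 1 of 5 higher and 2 lower, with sums of 20.3 to 23.4 and 9.02 to 10.1. Adipocyte markers had 3 of 4 higher and 1 lower, while their sum went from 94.1 to 116 in controls to 43.4 to 58.3. Fabp4, the 1 called lower, made up most of both sums, at 101 ± 11.4 in controls and 46.8 ± 8.08 in denervated muscle. Lymphocyte markers summed to 0.255 to 0.395 in controls and 1.0 to 1.44 in denervated muscle, and none passed the level filter. No marker in the table was at 0 in all 6 libraries. Eef1a1 is expressed in non-muscle cells as well as in immature muscle, and the part of these cell types in the eEF1A exchange was not tested.

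Reads can be shared between similar genes. Of the 67 factor rows 66 had a transcript in GENCODE M21, and 17 of them matched another row of the table at 95% identity or more over at least 200 bases, overlapping neighbours included. For Eef1a1 the 3 such rows were pseudogenes that summed to 0.504 ± 0.132 in controls and 1.09 ± 0.416 in denervated muscle, far below Eef1a1 itself. The near copies of Eif4a1 and Eif1, given with those genes, were larger. For Eif3j they summed to 7.84 ± 0.511 and 6.11 ± 1.51, above Eif3j itself, and most of this was Gm9781 at 6.73 ± 0.562 and 4.71 ± 1.35. For Eif1ad, Eif2b4, Eif2ak1, Eif5b and Eif2c2 the other row is a gene that overlaps on the opposite strand, and for the others not named here the sums stayed at 0.587 or less in both groups. A gene on the opposite strand overlaps 15 of the factor genes. Among these Aimp2 overlaps Eif2ak1 and Ndufs1, a subunit of respiratory complex I, overlaps Eef1b2, at 84.4 in controls and 33.6 in denervated muscle. No source used here gives the strand setting of the counting, and reads of such neighbours cannot be told apart.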

How the data were processed

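Libraries of whole gastrocnemius from 3 normal and 3 denervated mice were made from total RNA by a standard Illumina mRNA protocol with paired 50 bp reads, per the labels' protocols. The submitters' processing notes list RSEM 1.3.0, Bowtie2 2.2.9, edgeR 3.12.1 and NCBIM37 without roles or order. How strand and filters were set is not known here. The deposited table holds an expression signal per gene. Per its values, all entries between 0 and 100 lie within 0.00055 of whole multiples of 0.01 times a library factor, and the signal was treated as TPM times that factor. TPM keeps no depth, so no counting interval was computed.

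Values were used as deposited. All 12392 rows at 0.5 or more in at least 3 libraries were compared on log2(level + 1) with limma 3.58.1 in R 4.3.3 (lmFit, eBayes with trend, 4 residual degrees of freedom, two-sided, Benjamini-Hochberg over all rows tested). The procedure was tested on simulated data. The members and lists were chosen with earlier results of these data known, and the group of Argonaute rows was set apart after the table was seen. Named genes are, per role, the most abundant and up to 2 called in each direction, with Eef1a1, Eef1a2, Eef2, Eif4e and Etf1; other factors named, and the ratios other than that of Eef1a1 and Eef1a2, were chosen after their values were seen. Genes of the lists were named likewise, as up to 2 called in each direction and the most abundant. Near copies were sought with BLAST 2.17.0 among GENCODE M21 transcripts, and hosted or overlapping genes in its GRCm38 annotation. That is not the submitters' build, so table rows were matched by identifier, or by symbol where an identifier was missing. Start windows are from RefSeq (GRCm38.p6), which held 48 of the 66 symbols. Nothing says the mice were handled in batches. Alternatives were other scalings, filters, a pseudocount of 0.1, limma without trend, a replicate block and leaving out each library.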

Additional observations from a re-analysis of the deposited data

Results flagged for a closer look

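The pseudogene row Eif4a-ps4, which lies outside the protein-coding rows compared here, was at 20.6, 20.04 and 20.3 in controls and at 79.0, 65.7 and 62.2 in denervated muscle, with a mean of 68.9. It stands here because every denervated mouse lay above every control in a row outside the factor rows. Its means and its sum with Eif4a1 were given with that gene. Its level was above that of Eif4a1 in each of the 6 mice.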

How the results depend on the processing

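As deposited, 18 factors were higher and 8 lower, with a median of 0.04. Totals without the 20 most abundant rows gave 36 higher and 4 lower with a median of 0.37. Equal protein-coding totals gave 57 higher and 2 lower with a median of 0.87, and TPM without the library factor gave 25 higher and 5 lower. The median of all rows tested was 0.23, 0.60 and 0.05 in these 3 settings. The share of all rows called in each is not given here. Leaving out single libraries gave 15 to 17 higher, 5 to 8 lower (5 without control 2 or denervated 3) and medians of 0.02 to 0.07. The difference Eef1a1 minus Eef1a2 ranged from 4.37 to 4.66 without single libraries and was 4.50 with a pseudocount of 0.1. The other filters, the lower pseudocount and limma without trend left 16 to 18 higher and 7 or 8 lower.

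Values changed sign under 3 scalings, each of which multiplies a library by 1 constant and raised denervated muscle against controls. Which scaling is right was not tested. Over all 63 tested factors, 24 turned positive with equal protein-coding totals, 16 without the 20 most abundant rows and 6 as TPM without the library factor. Among the genes named by the rule, those with equal protein-coding totals were Eif1 (0.30), Eif1ad (0.36), Eif2a (0.41), Eif2ak1 (0.68), Eif2b1 (0.48), Eif2b4 (0.57), Eif2s2 (0.16) and Eif4a2 (0.55). Without the 20 most abundant rows they were Eif2ak1 (0.24), Eif2b4 (0.063) and Eif4a2 (0.011). Eif2ak1 was 0.035 as TPM without the library factor and ranged from -0.12 to 0.04 without single libraries, positive without control 3. Eif4g1 ranged from -0.044 to 0.15, negative without denervated 3.

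Replicate numbers are shared by the groups but did not pair the mice, since deviations of same-numbered mice correlated at -0.00681, -0.099 and 0.0194. With a replicate block 17 were higher and 8 lower; 4 called factors missed the threshold (Eif2a, Eif2b1, Eif3k and Eif4g3) and 3 described as not called passed it (Eif1b, Eif4ebp2 and Eif4g2). The depth of the libraries is unknown, so the precision of low levels cannot be stated.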
